A study of Mus musculus with 7 samples.

Results

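The 3 genes of the mouse Cyp26 family, Cyp26a1, Cyp26b1 and Cyp26c1, encode the cytochrome P450 enzymes that hydroxylate retinoic acid (RA). Binding of the α and β retinoic acid receptors (RARα and RARβ) and of the α retinoid X receptor (RXRα) at these genes was taken from chromatin immunoprecipitation followed by sequencing (ChIP-seq) of mouse liver. A peak was counted for a gene when its midpoint lay in the annotated span of the gene or within 50 kb of it (GRCm38, the mm10 build of the files). This rule uses position only. It took 53 of the 245004 peaks in all lists, and it took 3 of 21900 protein-coding genes. When overlapping peaks of all lists were merged, the 53 peaks formed 17 of 87787 regions. The regions are named below by the distance of their midpoint from the outermost annotated start of the gene.

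The livers came from male wild type C57BL/6 mice aged 3 months on a normal diet (control diet) or on a diet with RA, for which the labels state 1 day. The study states a longer RA feeding for its expression and serum measurements and does not say whether it also holds for the ChIP-seq livers. Each group was 1 library: RARα, RARβ and RXRα on the control diet, and the same receptors on the RA diet, with 14968 to 61128 peaks per list. There were no replicates, so no difference between diets or receptors could be tested, and the values below describe these 6 libraries. An input library of total chromatin was also made, and no peak list of it was used here. How many mice stood behind a library is not given in the sources used here. The peak caller's score is a multiple of the negative log10 of the p-value of a peak. It depends on read depth, which is unknown here, so each score is given with its rank and its percentile, the percentage of peaks in the same list with a lower score.

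RA is the active form of vitamin A. It binds RARs, which pair with RXRs on direct repeats of a short hexamer, classically with a spacer of 5 or 2 bases, and RXRs also pair with the receptors for fatty acids, bile acids and oxysterols. CYP26 enzymes oxidise RA to polar products that are cleared, and RA in turn raises transcription of Cyp26a1, which closes a feedback loop. Cyp26a1 is the main family member in adult liver. Cyp26b1 and Cyp26c1 are known best from the embryo, where they shape RA gradients in limb, hindbrain and gonad.

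Cyp26a1 (gene ID 13082) lies on the plus strand of chromosome 19, chr19:37697738-37701536. Cyp26c1 (gene ID 546726) lies on the same strand just upstream of it, chr19:37685112-37693320, with 4417 bp between the genes. Their windows overlap, and every peak counted for Cyp26c1 was also counted for Cyp26a1. Cyp26b1 (gene ID 232174) lies on the minus strand of chromosome 6, chr6:84571414-84593908.

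The promoter sequence of Cyp26a1 is shown because a peak covered it in 5 of the 6 lists. The RefSeq window (GRCm38.p6, plus strand, chr19:37697558-37697857) runs from 250 bases before to 50 bases after the transcript start that RefSeq gives, which is 70 bp inside the outermost start. Capitals mark the hexamers found in it, and the repeat itself is given below it as read on the minus strand, chr19:37697776-37697792. The repeat in the promoter of Rarb, the gene of RARβ and another known RA target, is set beside it (GRCm38.p6, minus strand, chr14:16575513-16575529).
Cyp26a1 promoter: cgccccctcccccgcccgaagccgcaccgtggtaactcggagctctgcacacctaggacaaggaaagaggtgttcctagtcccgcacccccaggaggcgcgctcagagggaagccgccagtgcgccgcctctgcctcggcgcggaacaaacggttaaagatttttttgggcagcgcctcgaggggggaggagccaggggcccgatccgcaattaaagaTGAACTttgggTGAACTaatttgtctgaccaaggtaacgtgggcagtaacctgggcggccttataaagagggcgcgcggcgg
Cyp26a1 repeat: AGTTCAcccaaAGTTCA
Rarb repeat: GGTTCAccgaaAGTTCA

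The search covered the hexamer AGGTCA, the variant with the letters AGTTCA, the variant with the letters GGGTCA and the variant with the letters GGTTCA, on both strands and their direct repeats with a spacer of 1, 2 or 5 bases (DR1, DR2 and DR5). The Cyp26a1 window held 2 hexamers, both AGTTCA, which together form 1 DR5 of 17 bases. Neither the Cyp26b1 nor the Cyp26c1 window held any of these hexamers, which says only that these letters are not in those 300 bases. Of 32851 promoter windows of 27025 genes, 43.7% held at least 1 hexamer, 0.222% a DR1, 0.268% a DR2 and 0.0974% (32 windows) a DR5. The same 17 bases occurred in 2 windows. The other one belongs to Gm32342, a noncoding gene on the opposite strand whose window takes in the same bases. Among the 28 other genes of the retinoid pathway examined below, 23 had a window, and Rarb was the gene with any of the 3 kinds of repeat.

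At the start of Cyp26a1, the lists differed most for RARα. The RARα control peak was 491 bp wide, with a score of 79.52 and rank 24227 of 35521 (percentile 31.8). Under the RA diet the RARα peak was 949 bp wide, with a score of 490.32 and rank 1629 of 44296 (percentile 96.3). It was the highest-ranked RARα peak in the window of the gene under RA. For RARβ, no peak was called at the start under the control diet. Under RA, 1 was called with a score of 138.27 (rank 9159 of 29467, percentile 68.9). A missing control partner was common at this height: 3003 of 9160 RARβ RA peaks scoring at least as much (32.8%) overlapped no control peak. RXRα had low-ranked peaks at the start of Cyp26a1 under both diets. Its score was 51.08 under the control diet (rank 60440 of 61128, percentile 1.12) and 84.89 under RA (rank 43767 of 59624, percentile 26.6). Under RA, the start of Cyp26a1 thus ranked high for RARα and low for RXRα.

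The midpoints of these peaks lay close to the repeat shown above. The RARβ midpoint under RA was 1 bp from the centre of the DR5, the RARα midpoints were 24 bp away under the control diet and 61 bp under RA, and the RXRα midpoints were 103 and 33 bp away. A peak midpoint within 1 kb of the start was present for Cyp26a1 in every list except the RARβ control list. Over all 21536 protein-coding genes with a known strand, this was so for 45.9% (RARα), 33.1% (RARβ) and 40.1% (RXRα) in the control lists, and for 46.2%, 40.3% and 41.9% in the RA lists. A peak near the start is therefore common among genes. A RARα peak under RA ranked as high as that at the start of Cyp26a1 was also found in the window of 17.5% of all protein-coding genes. To place the difference between the diets, a measure chosen after the values were seen was computed over all 29896 RARα control peaks that were shared with the RA list. Their percentile was a median of 4.32 points higher under RA. A shift of at least 64.5 points, the shift at the start of Cyp26a1, was seen for 141 of them (0.472%). A rise of that size is open only to peaks low in the control list, and the share is over all shared peaks.

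**Figure D1:**
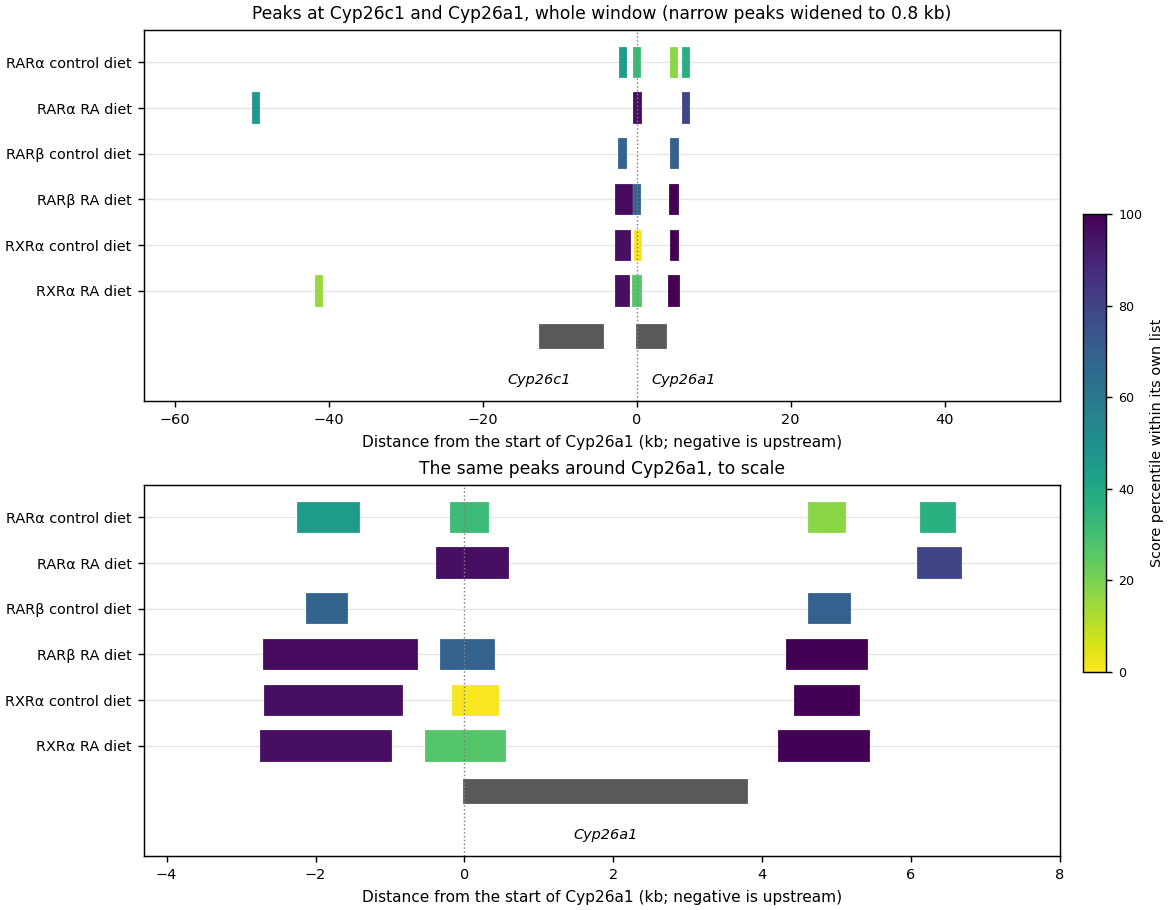
Peaks in the 6 lists at Cyp26c1 and Cyp26a1, by distance from the start of Cyp26a1 in kb; the upper panel shows the whole window, with narrow peaks drawn wider to be seen, and the lower panel the surroundings of Cyp26a1 to scale. Boxes are peaks, coloured by their score percentile within their own list, grey bars are the gene spans, and the dotted line is the start of Cyp26a1: RARα under RA has peaks at the start and at 6.38 kb but none at 4.83 kb, where the other 5 lists have one.

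The region with the highest-ranked peaks lay 4.83 kb from the start of Cyp26a1, just beyond the end of the gene span (chr19:37701957-37703176). The RXRα control peak there had a score of 1962.87 and rank 27 of 61128. Under RA the RXRα peak had a score of 1509.86 and rank 136 of 59624. The RARβ control peak had a score of 102.09 and rank 4614 of 14968 (percentile 69.2), and the RARβ peak under RA had a score of 845.19 and rank 104 of 29467 (percentile 99.6). RARα had a weak peak under the control diet, with a score of 63.33 and rank 29337 of 35521 (percentile 17.4), and no peak under RA. This site was therefore near the top of both RXRα lists and of the RARβ list under RA, and absent from the RARα list under RA. Of all protein-coding genes, 0.242% had in their window an RXRα control peak ranked as high as this one, and 1.23% had one as high under RA. The corresponding value for RARβ under RA was 1.34%.

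The region 1.69 kb upstream of the start of Cyp26a1 was called in the same 5 lists (chr19:37695006-37697101). It lies between the genes and takes up 47.5% of the stretch that separates them, inside the span of the noncoding gene Gm32342. The RXRα peaks had scores of 729.42 and 758.07 under the control diet and RA and the same rank of 2255 in their lists. The RARβ peak was 534 bp wide under the control diet (score 100, rank 4785 of 14968, percentile 68.0) and 2052 bp wide under RA (score 358.56, rank 866 of 29467, percentile 97.1). RARα had a peak under the control diet, with a score of 101.27 and rank 19517 of 35521 (percentile 45.0), and none under RA.

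Both sites were thus called in all lists but that of RARα under RA. This combination was seen in 263 of the 87787 merged regions. In a count made after these values were seen, 97 of 21536 genes had such a region within 10 kb of their start, and Cyp26a1 was the 1 gene with 2 of them. The combination was itself taken from the 2 sites at Cyp26a1, so their place in this count was fixed beforehand. Among RARα control peaks with a score at least as high as that of the upstream peak, 536 of 19519 (2.75%) had no overlap with the RA list. For the lower-scoring downstream peak, this was so for 9.61% of the peaks as high. An absent peak means that the caller's limit was not reached, and the read depth of the RARα libraries at these sites is not known.

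A further region, 6.38 kb from the start of Cyp26a1, was called for RARα only (chr19:37703831-37704402). The RARα peak had a score of 86.49 and rank 22549 of 35521 under the control diet (percentile 36.5) and a score of 253.02 and rank 9029 of 44296 under RA (percentile 79.6). The shift of 43.1 points was matched or exceeded by 4.52% of the shared RARα peaks. Regions called in both RARα lists and in no other list made up 8.33% of all merged regions, so this combination is a frequent one. The window held 2 more regions, each called in 1 list: a RARα peak under RA 49.4 kb upstream of Cyp26a1 (score 114.38, percentile 46.7) and an RXRα peak under RA 41.3 kb upstream (score 68.83, rank 50089 of 59624). Both lie inside Exoc6, which encodes an exocyst subunit.

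Cyp26c1 had no peak within 10 kb of its start in any list, like 6083 of the 21536 genes. No peak lay inside its span. The closest region began 1.69 kb past its end and is the upstream region of Cyp26a1 described above. The 2 distal peaks inside Exoc6 were 36.8 and 28.6 kb from the start of Cyp26c1 and nearer to it than to that of Cyp26a1. Among starts of protein-coding genes, that of Cyp26a1 was the nearest to all other regions of the shared window. Starts of noncoding genes such as Gm32342 were not compared.

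At Cyp26b1, the highest-ranked peaks of all lists but the RARα control list lay far upstream, and no peak lay within 1 kb of the start. The region 46.9 kb upstream (chr6:84640125-84641555) was called in all 6 lists, as 9.76% of merged regions were. The RXRα peak there had a score of 1064.05 under the control diet (rank 615 of 61128) and of 1462.65 under RA (rank 162 of 59624). The RARβ peak had a score of 110.72 under the control diet (rank 4001 of 14968, percentile 73.3) and of 1039.93 under RA (rank 73 of 29467). The RARα peak had a score of 95.08 under the control diet (percentile 41.7) and of 183.27 under RA (percentile 67.8). RXRα thus ranked near the top under both diets and RARβ under RA, while RARα was further down its lists and ranked higher under RA. A rise as large as that of RARα here was seen for 15.5% of shared RARα peaks. Of all protein-coding genes, 0.968% had in their window a RARβ peak under RA ranked as high as this one.

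The region 36.6 kb upstream (chr6:84630150-84630815) held the peak with the widest difference in rank between the diets. For RARβ, it was near the bottom of the control list, with a score of 51.8 and rank 14051 of 14968 (percentile 6.07). Under RA it had a score of 491.55 and rank 388 of 29467 (percentile 98.7). Of the 11345 RARβ control peaks shared with the RA list, 14 (0.123%) had a shift of at least the 92.6 points seen here, against a median of 6.02 points over all. Only peaks near the bottom of the control list could rise so far. The RXRα peak had a score of 352.3 under the control diet (rank 10876, percentile 82.2) and of 673.8 under RA (rank 3066, percentile 94.9). RARα was called under RA only, with a score of 89.57 (percentile 34.1). A region between these, 44.5 kb upstream, was called in the same 5 lists, with percentiles from 7.87 to 30.6.

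These upstream regions lie inside another gene, and their link to Cyp26b1 rests on position alone. All 5 regions upstream of Cyp26b1 fall in the span of Exoc6b, the gene of another exocyst subunit (chr6:84618486-85070258, minus strand). They are 429 to 447 kb from the start of Exoc6b, so the start of Cyp26b1 is the nearest start of a protein-coding gene. The remaining 2 of the 5 were an RXRα peak under RA at 32.6 kb (percentile 27.6) and a site at 29.2 kb called for RXRα under the control diet and for RARβ under RA (percentiles 32.3 and 39.9). The window edge cuts this series of peaks. A further site 53.0 to 53.2 kb upstream, just outside the window, was called under RA in the lists of RARα (percentile 26.0), RARβ (51.9) and RXRα (62.6) and in no control list, whereas the region at 46.9 kb was the last inside.

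**Figure D2:**
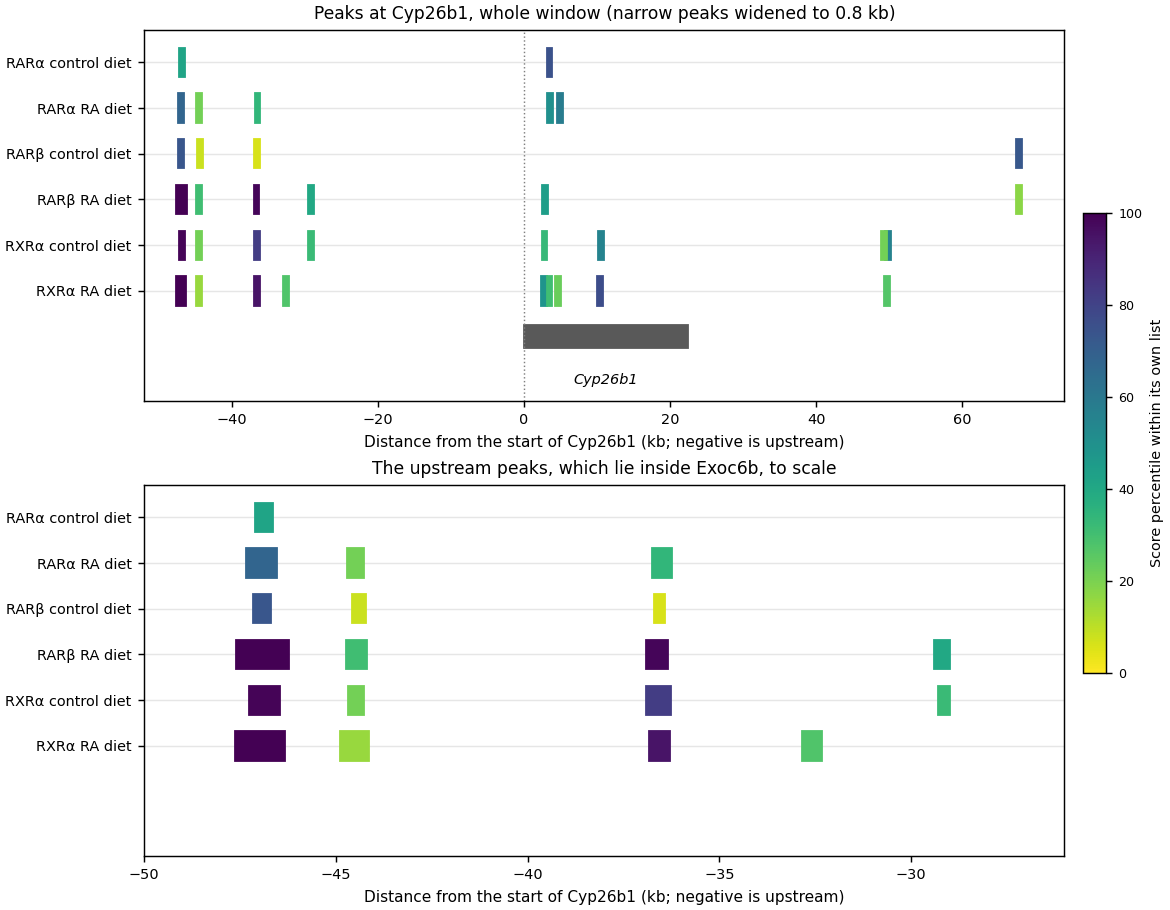
Peaks in the 6 lists at Cyp26b1, by distance from its start in kb; the upper panel shows the whole window, with narrow peaks drawn wider to be seen, and the lower panel the upstream peaks inside Exoc6b to scale. Boxes are peaks, coloured by their score percentile within their own list, and the grey bar is the gene span: the region at 46.9 kb is called in all 6 lists, and no box lies at the start.

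Inside the span of Cyp26b1 there were 4 regions. At 2.79 kb from the start, peaks were called for RXRα under both diets (percentiles 32.9 and 48.1) and for RARβ under RA (44.3). At 3.53 kb, RARα had a peak with a score of 204.78 under the control diet (percentile 74.8) and of 122.82 under RA (percentile 50.1), and RXRα had 1 under RA (30.8). This was the highest-ranked RARα control peak of the window, and its rank was lower under RA. The other RARα peaks called under both diets, at 46.9 kb and at the start and 6.38 kb of Cyp26a1, ranked higher under RA. At 4.78 kb, RARα (58.4) and RXRα (23.0) had peaks under RA, and no control list had one. At 10.5 kb, RXRα alone had peaks (55.2 under the control diet and 76.6 under RA). Whether these sites fall in exons or introns was not analysed here.

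Beyond the end of Cyp26b1 there were 2 regions. The region 49.6 kb from the start held 2 RXRα control peaks and 1 RXRα peak under RA, with percentiles from 21.3 to 55.7. At 67.7 kb, RARβ alone had a peak, 147 bp wide with a score of 109.53 under the control diet (percentile 72.7) and 481 bp wide with a score of 61.55 under RA (percentile 17.3). That drop in rank was against the direction of every other RARβ site at these genes. Of the shared RARβ peaks, 1.15% had a fall as large. Regions called in both RARβ lists and nowhere else were rare, at 77 of 87787 (0.0877%).

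**Figure D3:**
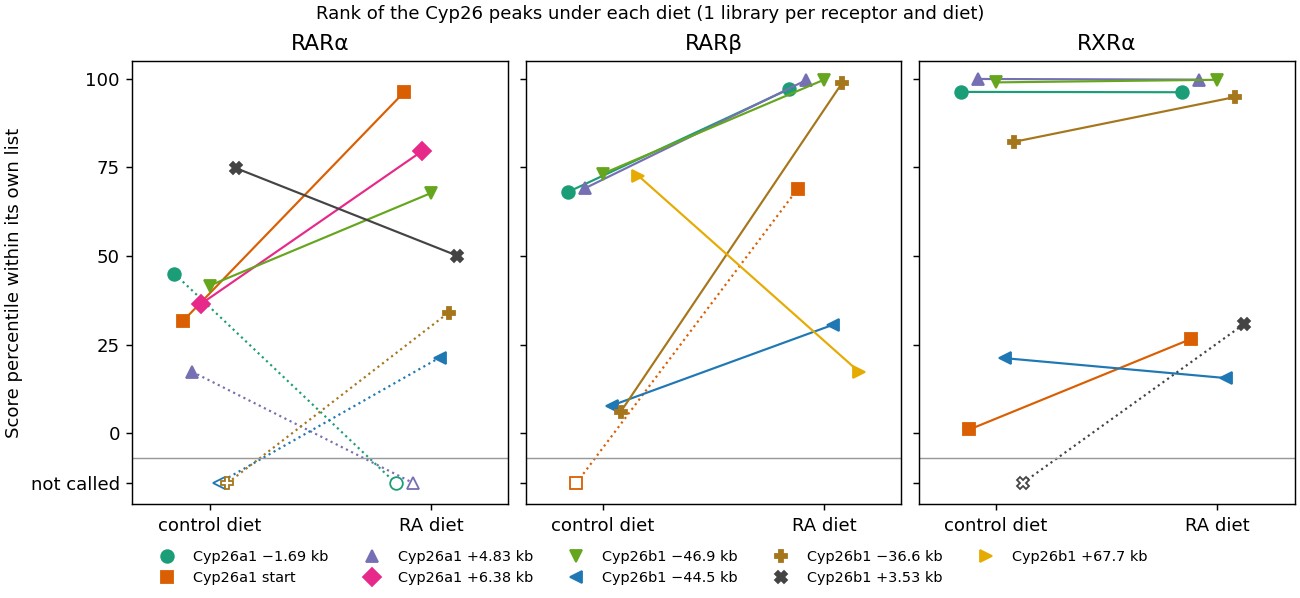
Score percentile within the list (vertical axis, 0 to 100) of the peaks at the 9 Cyp26 regions where RARα or RARβ was called under both diets, for the control diet and the RA diet, 1 panel per receptor and 1 library per point. Open symbols and dotted lines mark a peak that was not called under that diet: of the 6 RARβ sites called under both diets, 4 lie between 97.1 and 99.8 under RA, the site at 44.5 kb lies at 30.6, and the site at 67.7 kb falls from 72.7 to 17.3.

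By receptor, the ranks moved as follows between the diets. RARβ had 9 peaks under RA against 6 in the control list, and each of the 6 overlapped an RA peak. At 5 of these 6 sites the percentile was higher under RA, and the highest-ranked were at percentiles 97.1, 98.7, 99.6 and 99.8. Over all shared RARβ peaks, 64.1% had a higher percentile under RA. Shifts as large as those of RARβ at 1.69 and 4.83 kb of Cyp26a1 were seen for 23.0% and 21.9% of all shared RARβ peaks, and as large as those at 46.9 and 44.5 kb of Cyp26b1 for 25.2% and 28.8%. Counted in points, those 4 shifts were thus common in the RARβ lists. A rise in points is limited by the starting percentile, which was 68.0, 69.2 and 73.3 at 1.69, 4.83 and 46.9 kb. Peaks that started as high were not counted apart. RARα had 4 shared sites, with a higher percentile under RA at 3 of them, against 62.5% over all shared RARα peaks. RXRα had 9 shared control peaks. At the 8 in regions with 1 RXRα peak per list, 5 percentiles were higher under RA, against 51.2% over all. The RARβ control list is the shortest and the one with the fewest peaks of a score of at least 100 (4786 of 14968, against 14631 of 29467 under RA), and its part in the difference between the diets was not tested.

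The number of peaks at the Cyp26 genes was unremarkable beside that at other genes. Cyp26a1 and Cyp26c1 shared counts of 4 (RARα), 2 (RARβ) and 3 (RXRα) under the control diet and of 3, 3 and 4 under RA. Cyp26b1 had 2, 4 and 8 in the control lists, compared with 5, 6 and 9 in the RA lists. The median over all protein-coding genes was 4, 1 and 5 in the control lists, compared with 4, 3 and 5 in the RA lists. At least as many RARβ peaks as at Cyp26b1 were found at 19.4% of genes under the control diet and at 21.8% under RA. At least 1 peak in the same window was found for 83.0% (RARα), 69.6% (RARβ) and 83.0% (RXRα) of genes in the control lists, and for 84.2%, 77.2% and 83.6% in the RA lists. A peak in such a window is thus the rule, and the presence of peaks at all 3 Cyp26 genes in all 6 lists says little by itself.

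**Figure D4:**
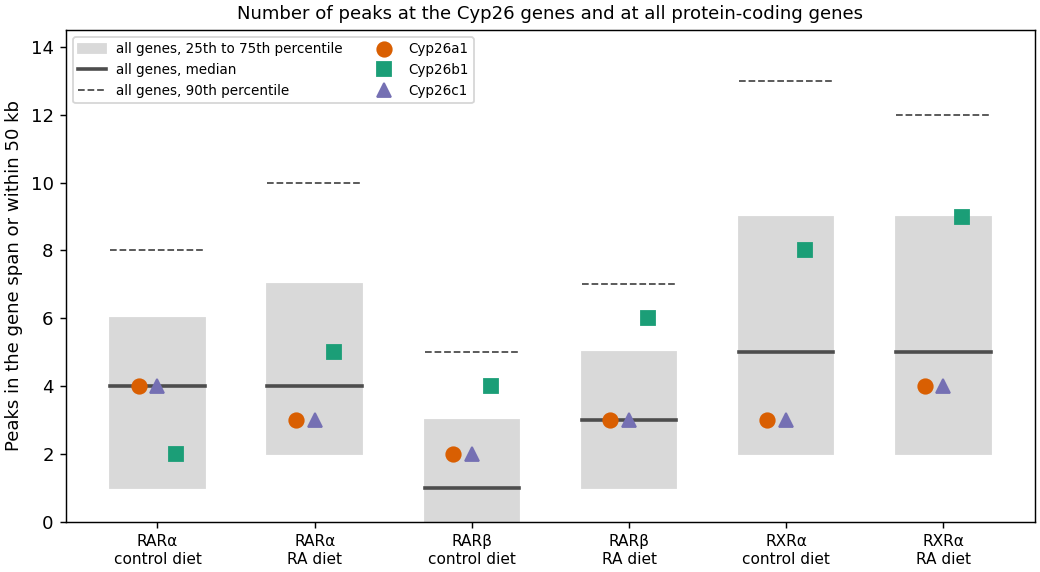
Number of peaks in the gene span or within 50 kb in each list (vertical axis) for Cyp26a1, Cyp26b1 and Cyp26c1 (points), with the 25th to 75th percentile (grey box), median (line) and 90th percentile (dashed line) over all 21900 protein-coding genes. Only Cyp26b1 in the RARβ lists, with 4 and 6 peaks, lies above the grey box, and no point lies above the dashed line.

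Sharing between the diets was counted with an overlap of at least 25% of the width of each peak. Of the RARα control peaks, 2 of 4 at Cyp26a1 and 2 of 2 at Cyp26b1 were shared with the RA list, against 84.2% of all RARα control peaks. For RARβ, all 2 and 4 control peaks were shared, against 75.8%. For RXRα, 3 of 3 and 6 of 8 were shared, against 78.7%. In the other direction, 2 of 3 and 2 of 5 RARα peaks under RA were shared with the control list (68.4% of all), 2 of 3 and 4 of 6 RARβ peaks (38.2%), and 3 of 4 and 6 of 9 RXRα peaks (80.3%). With so few peaks, only large departures from these shares could be seen.

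Sharing of RAR peaks with RXRα differed between the loci under RA. At Cyp26a1, RXRα overlapped 3 of 4 RARα peaks under the control diet but 1 of 3 under RA, the peak at the start. At Cyp26b1 the counts were 1 of 2 under the control diet and 5 of 5 under RA. Over all RARα peaks, 61.1% in the control list and 61.7% in the RA list were shared with RXRα. For RARβ, 2 of 2 peaks at Cyp26a1 and 3 of 4 at Cyp26b1 were shared with RXRα under the control diet, and 3 of 3 and 4 of 6 under RA, beside 77.8% and 89.9% of all RARβ peaks.

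The other genes that make, carry or sense RA were examined in a list of 28, by peaks within 10 kb of the start. RARα had such a peak at 19 of 28 genes under the control diet (67.9%, Wilson 95% interval 49.3 to 82.1) and at 17 under RA (60.7%, 42.4 to 76.4). RARβ had one at 9 (32.1%, 17.9 to 50.7) and 13 (46.4%, 29.5 to 64.2), and RXRα at 19 under each diet (67.9%, 49.3 to 82.1). The shares over all genes were 61.9%, 44.1% and 61.3% in the control lists, and 63.3%, 54.7% and 61.7% in the RA lists, inside all of these intervals. The intervals cover counting error only and hold for 10 kb. Within 1 kb, the RARβ shares of the 28 genes were below those of all genes, as given below. Among the 28, 7 had a peak in all 6 lists and 7 in none. Of all 21536 genes, 6083 had none in any list, so genes with none are common. How many of all genes had a peak in all 6 lists was not counted. These counts use the outermost annotated start. Rarb is counted among those with none, although another of its promoters was covered in all 6 lists, as described below.

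By role, 11 of the 12 enzymes of RA synthesis and its reversal had an RXRα peak under each diet, 11 and 10 had a RARα peak, and 5 and 8 a RARβ peak. The Wilson intervals for RXRα under the control diet overlapped between the enzymes (64.6 to 98.5%), the genes for binding, uptake and storage (21.5 to 78.5%) and the receptors (18.8 to 81.2%). The enzyme interval lay above the share of all genes for RXRα under both diets (61.3% and 61.7%) and for RARα under the control diet (61.9%). In the remaining lists the enzyme interval included the share of all genes. These intervals hold for 10 kb. Within 1 kb, RARα under the control diet had a peak at 6 of the 12 enzymes (50%), against 45.9% of all genes. RXRα had one at 9 (75%) under each diet, against 40.1% and 41.9%. No difference between the roles was tested. For Dhrs3, which returns retinal to retinol, every list placed a peak less than 1 kb from the start, and the best peak within 10 kb had percentiles from 47.4 to 83.7. Dhrs9, a retinol dehydrogenase, had RXRα peaks at percentile 99.94 under each diet, beside 99.96 and 99.77 for Cyp26a1. Adh1, an alcohol dehydrogenase that oxidises retinol, had a RARβ peak under RA at percentile 94.5 and none under the control diet. Of the 8 genes for binding, uptake and storage, Crabp1, Crabp2 and Stra6 had no peak in any list. Rbp4, the plasma carrier of retinol, had RXRα peaks at percentiles 88.4 and 89.8. Of the 6 receptor genes, Rarb, Rarg and Rxrg had none within 10 kb of the outermost start. Of the other P450 enzymes known to hydroxylate RA, Cyp2c39 had a peak in 5 lists and Cyp2s1 in none.

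For Rarb the outermost start is not the promoter that holds the repeat. The DR5 of Rarb printed above was covered by a peak in all 6 lists, a check made after the repeat was found. The RARα peaks there had percentiles of 83.0 and 96.1 under the control diet and RA, the RARβ peaks 78.3 and 99.6, and the RXRα peaks 94.5 and 98.1. At the DR5 of Cyp26a1 the values were 31.8 and 96.3 for RARα, none and 68.9 for RARβ, and 1.12 and 26.6 for RXRα. The RARα percentiles under RA were thus close at these promoters, and the RXRα percentiles were far apart.

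Among P450 genes as a whole, Cyp26a1 was in the company of many bound genes. Of 99 protein-coding genes whose symbol begins with Cyp and a digit, the 3 family members included, 79 had an RXRα control peak less than 10 kb from the start (79.8%, 70.8 to 86.5) and 78 an RXRα peak under RA (78.8%, 69.7 to 85.7). RARα had one at 68 and 76, and RARβ at 34 (34.3%, 25.7 to 44.1) and 71 (71.7%, 62.2 to 79.6). The shares over all genes given above for the same distance were 61.3% and 61.7% for RXRα, 61.9% and 63.3% for RARα, and 44.1% and 54.7% for RARβ, so that the RARβ share of P450 genes was below that of all genes in the control list and above it in the RA list. Many of these genes stand in clusters and share peaks.

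Genes with a pattern like that of Cyp26a1 were sought by the percentile of the best peak within 10 kb of the start over the 6 lists. The nearest, by Euclidean distance in percentile points, were Slc10a1 (11.4), Pon1 (15.4) and Pipox (18.4). For Slc10a1, the gene of the bile acid uptake transporter of hepatocytes, the percentiles were 46.7, 70.5 and 99.87 in the RARα, RARβ and RXRα control lists, compared with 88.0, 92.2 and 99.75 under RA. For Cyp26a1 they were 45.0, 69.2 and 99.96 in the control lists, compared with 96.3, 99.6 and 99.77 under RA. The best peak was not the same site in every list. For RARα it was the site 1.69 kb upstream under the control diet and the start under RA. For RARβ and RXRα it was the site at 4.83 kb. For Cyp26b1, with no RARβ control peak that close, the nearest were Polr2d (10.4) and Bag5 and Coa8 (both 11.1). Cyp26c1 was at 0 in all lists.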

How the data were processed

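The authors fed mice, immunoprecipitated liver chromatin and sequenced it. Per the study's methods, reads were aligned to mm10 with Bowtie 0.12.7 and peaks were called with MACS 1.4.1. The deposited data hold 1 list per ChIP library. The methods also state a background limit of 20 times the input signal. Whether that limit was applied to the deposited lists is not given. The deposited score of each peak is the caller's own value, not normalized between libraries, and was used only within a list. No total read counts are in the lists.

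Here, gene spans and promoter windows came from RefSeq (GRCm38.p6). The strand of 17492 protein-coding genes came from the promoter windows and that of 4044 from GENCODE M1 by symbol. The genome at hand is an older build and was not used for sequence or coordinates, so peaks outside promoter windows have no sequence here. Windows, ranks, overlaps and motifs were computed in Python 3.11.15 with pandas 2.3.3, numpy 2.4.6 and scipy 1.17.1, and tested on simulated data. Peaks that overlap or touch were merged over the lists. With 1 library per receptor and diet no test was made. The genes named are the 3 members, the 28 retinoid genes with 99 P450 genes, and the 3 nearest in pattern on other chromosomes. The members and lists were chosen with earlier results of these data known. Alternatives were the window, a score of at least 100, lists of equal length (14968 peaks), assignment by any overlap, and the overlap that counts as shared.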

Additional observations from a re-analysis of the deposited data

Results flagged for a closer look

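The direction of the difference between the diets was not the same for all receptors at Cyp26a1, and these differences were not tested, since each list is 1 library. In the shared window of Cyp26a1 and Cyp26c1, the number of RARα peaks was 4 under the control diet and 3 under RA, whereas RARβ had 2 and 3 and RXRα 3 and 4. The difference between RARα and either other receptor in the change of the count was -2 for both genes. For RARα, the sites 1.69 kb upstream and 4.83 kb downstream of the start of Cyp26a1 were not called under RA, and a site 49.4 kb upstream was called under RA alone.

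The percentile changes of RARβ and RXRα had opposite signs at 3 sites, and at those of Cyp26a1 the RXRα change was close to 0. At 1.69 kb upstream of Cyp26a1, the RARβ percentile was 29.0 points higher under RA and the RXRα change was -0.09 points, a difference of 29.1 points; the RXRα peak had rank 2255 in both lists. At 4.83 kb the changes were 30.5 and -0.18 points, a difference of 30.7. At 44.5 kb upstream of Cyp26b1 they were 22.8 and -5.61 points, a difference of 28.4. A fall as large as that of RXRα there was seen for 32.6% of shared RXRα peaks. Over all shared peaks, 64.1% of RARβ and 51.2% of RXRα percentiles were higher under RA. How often their signs differ at other sites was not counted. The RXRα percentiles at the Cyp26a1 sites were 96.3 and 99.96 under the control diet, which left little room for a rise.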

How the results depend on the processing

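No paired analysis was possible because each receptor and diet has 1 library, and no replicate could be left out. Values are given in the order RARα, RARβ and RXRα, under the control diet and then under RA. A value counts as moved when it changed by more than 1.5 times. Assigning peaks by any overlap with the window moved 0 of 18 peak counts. With 10 kb in place of 50 kb, 7 of 18 counts moved: at Cyp26b1 to 1, 0, 2, 2, 1 and 4, and at Cyp26c1 to 1 for RARα under RA. With 100 kb, 8 moved, at both Cyp26a1 and Cyp26c1 to 6 for RXRα under the control diet and to 5, 5 and 7 under RA. When a minimum score of 100 was set, 10 moved: to 1 for RARα under the control diet and 2 for RXRα under RA at Cyp26a1 and Cyp26c1, and to 1, 2, 4, 3, 2 and 4 at Cyp26b1. With lists of equal length, 9 moved: to 0 and 2 in the same lists at Cyp26a1 and Cyp26c1, and at Cyp26b1 to 1 and 2 for RARα and RXRα under the control diet and to 1, 2 and 3 under RA.

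Peaks shared between the diets moved at 50% overlap for RARβ, from 6 to 3 in both directions, and with a score of at least 100 to 1 for RARα, 3 for RARβ and 5 for RXRα in both directions. Between receptors, 50% overlap moved RARβ and RXRα under the control diet to 3 in both directions. The percentile of the best peak moved with 10 kb at Cyp26b1 to 0 and 55.2 for RARβ and RXRα under the control diet and to 44.3 for RARβ under RA. With equal length it moved to 0 for RARα under the control diet at Cyp26a1 and Cyp26c1, and at Cyp26b1 to 40.1 and 4.66 for RARα. Within 1 kb, the number of retinoid genes with a peak moved to 12 for RARα under the control diet. For RARβ it moved to 2 under the control diet and to 6 under RA. These RARβ shares were 7.14% and 21.4% of the 28 genes, against 33.1% and 40.3% of all genes within 1 kb. The RARα share was 42.9% under each diet, against 45.9% and 46.2%, and the RXRα share was above that of all genes under each diet. No interval was computed for 1 kb. With equal length, the number of retinoid genes moved to 7 and 8 for RARα and RXRα under the control diet and to 11, 7 and 8 under RA. Thus no RARα control peak at Cyp26a1 remains among the 14968 highest of its list, and the loss of RARα peaks there under RA concerns peaks below the middle of the control list. The read depth of each library is unknown, so no peak that was not called can be read as absent binding.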

Other observations

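Promoters with a DR5 were looked at after the repeat of Cyp26a1 was found. Of the 32 RefSeq promoter windows with a DR5, 23 overlapped no peak in any list, and 4 overlapped a peak in at least 5 lists: those of Rarb, Cyp26a1, Gm32342 and Blvrb. Gm32342 shares its repeat with Cyp26a1, so these windows are not independent. How many of all promoter windows overlap no list, or at least 5 lists, was not counted. Blvrb, which encodes a biliverdin reductase, had RARα peaks at percentiles 45.7 and 46.9 under the control diet and RA, a RARβ peak at 78.3 under RA, and RXRα peaks at 71.8 and 78.1. A RARα peak under RA overlapped 5 of the 32 windows (15.6%, Wilson 95% interval 6.86 to 31.8), against 34.1% of all 32851 windows. An RXRα peak under RA overlapped 9 (28.1%, 15.6 to 45.4), against 30.8%. Many of the 32 belong to predicted genes, and the windows hold only sequence near starts, so repeats elsewhere are not counted.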
